A study of Mus musculus with 48 samples.

Results

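Skin of C3H/HeJ mice given only the vehicle was compared by the route of delivery. Among 48 arrays of the series, 9 were vehicle arrays of week 13, chosen by their titles and treatment labels: 3 of PBS gavage, 3 of PBS pump and 3 of PBS ip. PBS is phosphate-buffered saline, which was delivered into the stomach (gavage), from a pump or into the peritoneum (ip). The labels give the strain C3H/HeJ, skin as the tissue and 12/13 weeks of treatment for all 9, and no age, genotype, body site or hair stage. From what is known of the study, the mice carried grafts of skin from mice with alopecia areata, an autoimmune loss of hair, so that vehicle mice had developed the disease. The study tested blockers of interleukin-15 signalling, labelled il15rb, jak3i and jak12i, and the 9 arrays of mice given these at week 13 are used here only as a range of levels. PBS gavage (5 arrays) and PBS pump (3 arrays) of week 6 served as other animals on the same routes.

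Hair follicles cycle between growth, regression and rest. During growth the follicle builds a shaft of hard keratins and keratin-associated proteins, wrapped in an inner root sheath, and its melanocytes make pigment. Below the dermis, mouse skin has a fat layer and then a thin sheet of skeletal muscle, the panniculus carnosus, so a deeper piece of skin holds more fat and muscle. In alopecia areata, CD8 T cells gather around growing follicles, and interferon gamma induces chemokines and antigen presentation genes.

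Very few genes separated the 3 routes. Of 12315 genes tested, the moderated F test of limma over the 3 routes called 1 gene (0.00812%) at an adjusted p under 0.05. An unadjusted p under 0.05 was reached by 608 genes (4.94%). PBS gavage against PBS pump called 0 genes (0%), with 624 genes (5.07%) at an unadjusted p under 0.05. PBS gavage against PBS ip also called 0 genes (0%), with 685 genes (5.56%) at the unadjusted level. PBS pump against PBS ip called 1 gene (0.00812%), higher in PBS pump, with 575 genes (4.67%) at the unadjusted level. Tests that use the week 6 arrays, and alternative fits, are given further below. A p that misses the threshold does not show that the routes were alike.

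The gene called was Sntb2, which encodes beta-2-syntrophin, an adapter of the dystrophin complex. Its log2 signal was 8.71, 8.73 and 8.80 in PBS gavage skin, 9.01, 9.12 and 9.14 in PBS pump skin, and 8.03, 8.16 and 8.15 in PBS ip skin. The 3 routes did not overlap, and 98.3% of its sum of squares lay between them. PBS pump exceeded PBS ip by 0.98 on the log2 scale (SE 0.08, limma adjusted p = 0.0150), a 1.97-fold difference, and the adjusted p of the 3-group F test was 0.0483. PBS gavage exceeded PBS ip by 0.64 (SE 0.08, limma adjusted p = 0.389) and was lower than PBS pump by 0.34 (difference -0.34, SE 0.08, limma adjusted p = 0.895). The other 3 probe sets of Sntb2 were also higher in PBS pump than in PBS ip, by 0.66, 0.51 and 0.48. At week 6 the gene read 8.15, 7.74, 8.07, 7.40 and 7.95 in PBS gavage skin and 8.34, 8.31 and 7.96 in PBS pump skin, and the difference of -0.34 did not pass the test (limma adjusted p = 0.167). The call was fragile: leaving out any 1 of the 9 arrays gave an adjusted F-test p between 0.0612 and 0.490, and the call against PBS ip was kept only without PBS ip replicate 2, while the difference stayed between 0.93 and 1.02.

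Testing every probe set instead of 1 per gene called 4 genes in PBS pump against PBS ip. Besides Sntb2 these were Hdlbp, a high-density lipoprotein binding protein, Hsp90b1, a chaperone of the endoplasmic reticulum, and Ctr9, a subunit of the Paf1 transcription complex. Probe sets of one gene disagreed for Hdlbp: of 5, 3 were higher in PBS pump, by 0.98, 1.08 and 0.46, and the 2 brightest were lower by 0.21 and 0.19 (differences -0.21 and -0.19). Of the 5 for Ctr9, the called probe set was higher by 0.81 and another by 0.53, and the other 3, the brightest among them (difference -0.14), were lower. For Hsp90b1 the called probe set was higher by 0.69 and the brightest one by 0.11. These 3 genes were named after their values were seen.

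**Figure D1:**
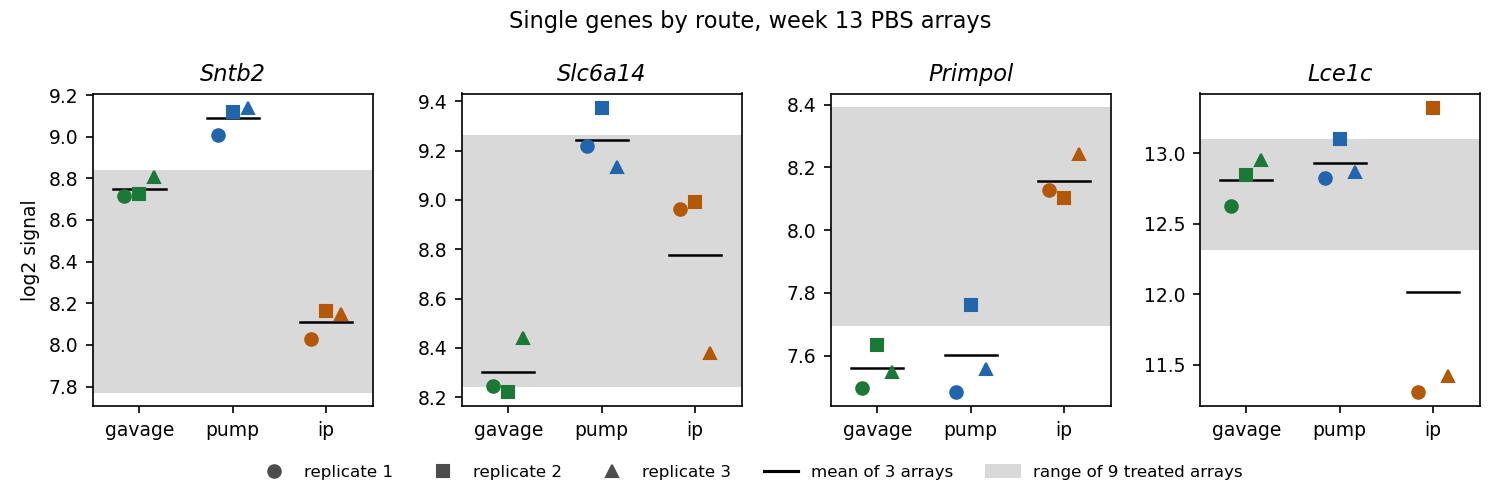
Log2 signal of Sntb2, Slc6a14, Primpol and Lce1c (vertical axes) in each of the 9 week 13 vehicle arrays, by route (horizontal axes), with bars at the mean of 3 arrays and a grey band over the range of the 9 treated arrays. Sntb2 separates the 3 routes, with PBS pump at 9.01 to 9.14 and PBS ip at 8.03 to 8.16, whereas for Lce1c PBS ip replicate 2 stands at 13.32 and the other 2 PBS ip arrays at 11.31 and 11.42.

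Of the 10 genes of smallest p in PBS gavage against PBS pump, 1 was higher and 9 were lower in PBS gavage, and none passed the test (limma adjusted p = 0.895 for each). Slc6a14, an amino acid transporter, had the largest difference among them. It read 8.25, 8.22 and 8.44 in PBS gavage skin, 9.22, 9.37 and 9.13 in PBS pump skin, and 8.96, 8.99 and 8.38 in PBS ip skin. PBS gavage lay below PBS pump by 0.94 (difference -0.94, SE 0.17), without overlap. The other probe set of Slc6a14, brighter in these 9 arrays, differed by -0.33 with overlapping groups, and its PBS gavage minus PBS ip difference was 0.15, against -0.48 for the one tested. Rad21, a subunit of cohesin, read 10.06, 9.89 and 9.89 in PBS gavage skin against 10.51, 10.53 and 10.58 in PBS pump skin. Ppp1cb, a catalytic subunit of protein phosphatase 1, differed by -0.70 (SE 0.14), Grsf1, a mitochondrial RNA-binding protein, by -0.45 (SE 0.08) and Acbd5, a peroxisomal protein, by -0.61 (SE 0.12). Card6 was the 1 gene of the 10 that was higher in PBS gavage, by 0.53 (SE 0.10). The other probe sets of Ppp1cb were also lower in PBS gavage, while 1 of 3 for Rad21, 1 of 4 for Grsf1 and 1 of 2 for Acbd5 were higher, by 0.03, 0.20 and 0.18. All 10 had groups that did not overlap, as did 1603 of all genes tested (13%), since the genes were chosen by their p.

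Against PBS ip, the genes of smallest p included Primpol, a primase and polymerase of DNA damage tolerance. It read 7.50, 7.63 and 7.55 in PBS gavage skin, 7.48, 7.76 and 7.56 in PBS pump skin, and 8.13, 8.10 and 8.24 in PBS ip skin. The differences were -0.60 for PBS gavage minus PBS ip (SE 0.09, limma adjusted p = 0.801) and -0.56 for PBS pump minus PBS ip (SE 0.09, limma adjusted p = 0.698). Zfp800, a zinc finger gene, differed by 0.50 and 0.57 in the same order, and Rsf1, a chromatin remodelling factor, by 0.54 and 0.63. Their probe sets disagreed: for PBS gavage minus PBS ip, 3 of 7 for Zfp800 were higher and 4 lower, down to -0.38, and 3 of 4 for Rsf1 were higher and 1 lower, at -0.24. These 2 comparisons share the PBS ip arrays, so the values of one are not independent of the other. Of the 10 genes of smallest p in each, 6 were higher in PBS gavage than in PBS ip and 8 were higher in PBS pump than in PBS ip.

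Variation within a route was the larger part. The median gene had 22.5% of its sum of squares between routes. Without any difference, 3 groups of 3 arrays give 25% on average. An average is not a median, so these values do not show whether the share lay above or below that level. The median SD within a route was 0.16 on the log2 scale. An SD above 1 was seen for 236 genes. These included 22 of the 26 skeletal muscle genes tested, 15 of the 18 hair shaft genes, 10 of the 13 inner root sheath genes and 53 genes with a keratin (Krt) or keratin-associated protein (Krtap) name. Pairs of arrays correlated at 0.899 to 0.980 within a route and at 0.912 to 0.982 between routes. The lowest of all pairs was within PBS ip, between replicates 2 and 3, whereas PBS ip replicates 1 and 3 correlated at 0.978. PBS ip replicate 2 therefore stood apart from its own group, although it correlated at 0.973 and 0.974 with PBS gavage replicates 1 and 2. Without it the median share between routes was 34.3%, where 8 arrays without any difference give 28.6% on average, again an average beside a median. The PBS ip arrays then kept, replicates 1 and 3, were the lowest in fat and had the largest Gapdh differences between 3′ and 5′ ends, as given below. The part of these in the rise was not tested.

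**Figure D2:**
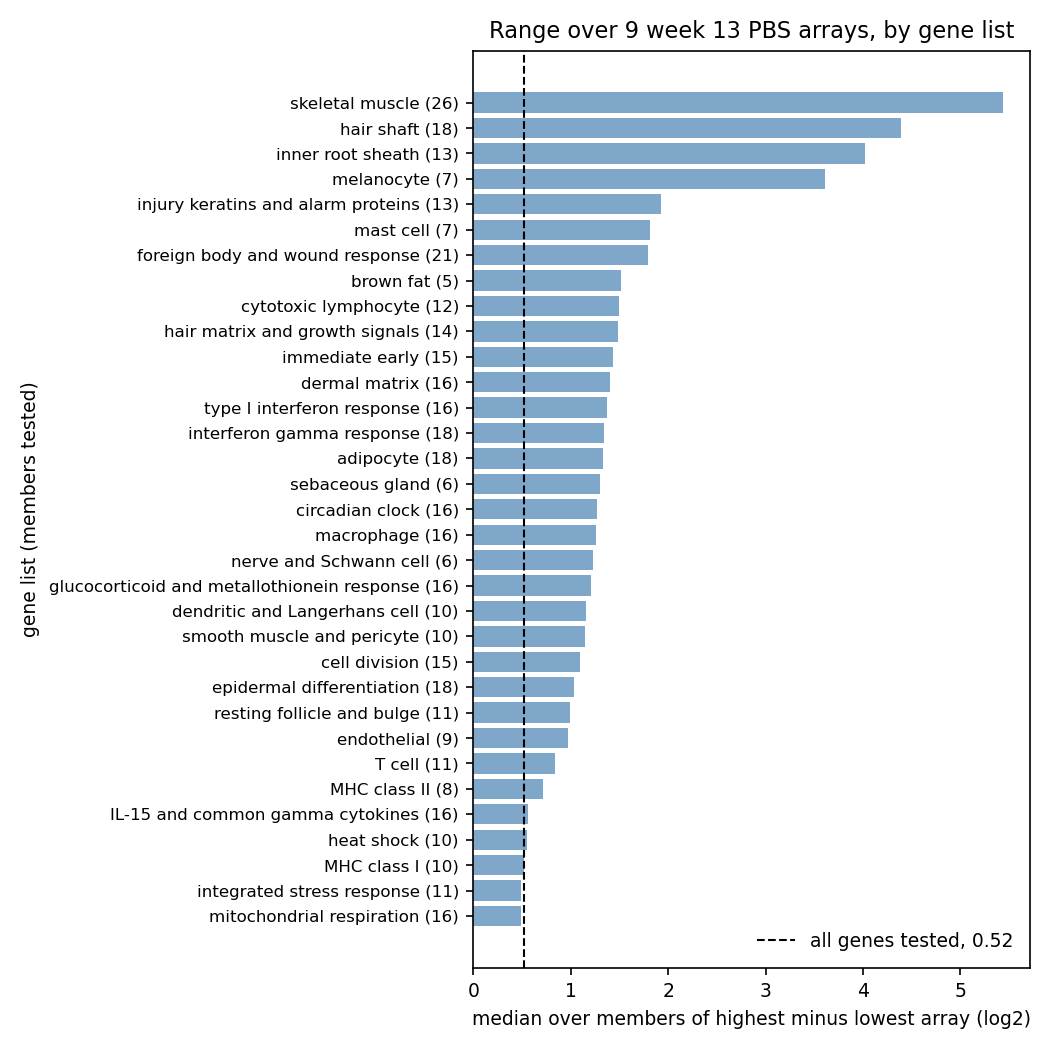
For each gene list with at least 5 tested members (vertical axis, with the number tested), the bar gives the median over members of the highest minus the lowest of the 9 week 13 vehicle arrays on the log2 scale (horizontal axis). Skeletal muscle (5.44), hair shaft (4.39), inner root sheath (4.02) and melanocyte genes (3.61) lie far to the right of the dashed line for all genes tested (0.52).

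The first principal component, 45.3% of the variance, followed skeletal muscle: 22 of the 26 muscle genes were among its 100 genes of largest weight, and none of the 79 Krt or Krtap names was. The second, 26.1% of the variance, followed the hair: 52 of the 79 Krt or Krtap names, 15 of the 18 hair shaft genes and 10 of the 13 inner root sheath genes were among its top 100, and 1 muscle gene. The third took 7.37%. On the first component the 3 PBS gavage arrays lay together, at scores of 9.66 to 27.3, with PBS ip replicate 2 just beyond them at 28.7 and the other 5 arrays at 5.73 or below. PBS pump and PBS ip each had arrays on both sides of 0 on the first component, and all 3 routes had arrays on both sides of the second.

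**Figure D3:**
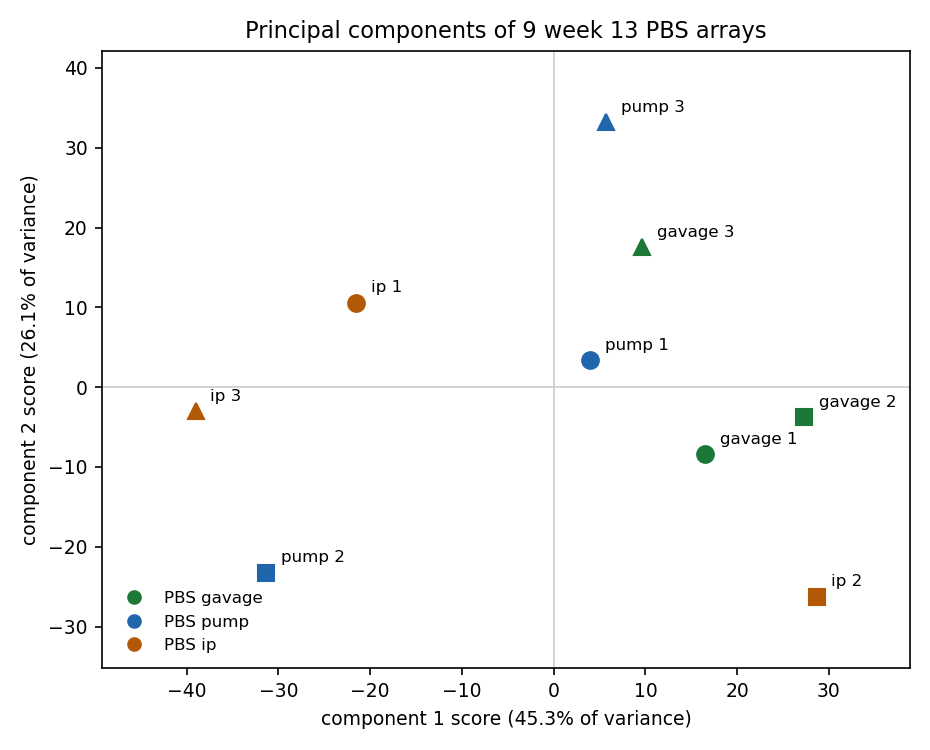
Scores of the 9 week 13 vehicle arrays on principal component 1 (horizontal axis, 45.3% of variance) and component 2 (vertical axis, 26.1% of variance), coloured by route. PBS pump replicate 2, PBS ip replicate 1 and PBS ip replicate 3 lie at the left, where muscle genes are low, and PBS ip replicate 2 lies at the lower right, far from the other PBS ip arrays.

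Tissue depth was read from muscle, fat and dermal genes. The mean log2 signal of the 26 skeletal muscle genes was 11.42, 11.61 and 11.18 in PBS gavage skin, 10.86, 7.15 and 11.17 in PBS pump skin, and 9.26, 11.61 and 6.90 in PBS ip skin. PBS gavage arrays were uniformly high, while PBS pump replicate 2 and PBS ip replicate 3 were near the bottom and PBS ip replicate 1 was in between. Acta1, the alpha-actin of skeletal muscle, read 13.91, 14.15 and 13.73 in PBS gavage skin, 13.64, 8.89 and 13.78 in PBS pump skin, and 11.71, 14.01 and 8.36 in PBS ip skin, a 55.4-fold range over the 9 arrays. Its mean was higher in PBS gavage than in PBS ip by 2.57, but the SE was 1.61 (limma adjusted p = 0.801). Ttn, which encodes the giant spring protein titin, read 12.57, 12.57 and 11.83 in PBS gavage skin, 11.44, 7.02 and 11.36 in PBS pump skin, and 9.32, 12.26 and 5.61 in PBS ip skin. No muscle gene was called in any pair. Among the 26, 13 were higher in PBS gavage than in PBS pump without overlap, where 7.59% of all genes tested were. In whole skin, fewer cells of a type and less RNA per cell cannot be told apart.

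The 10 genes of largest spread within a route were all genes expressed in skeletal muscle: Myom2, Myh4, Myot, Smpx, Myl1, Neb, Tnnt3, Ckmt2, Apobec2 and Myh2. Myom2, a protein of the sarcomere M-band, ranged 134-fold, with 11.66, 12.25 and 11.63 in PBS gavage skin, 11.53, 5.74 and 11.14 in PBS pump skin, and 9.22, 12.29 and 5.22 in PBS ip skin. The myosin heavy chains, which differ between fibre types, did not all move in step, and Ttn, Myh1 and Myh7 were named after their values were seen. Myh4, the chain of type 2B fibres, read 13.49, 11.10 and 13.69 in PBS gavage skin, 8.62, 7.86 and 13.74 in PBS pump skin, and 11.89, 12.45 and 6.59 in PBS ip skin. Myh2, the chain of type 2A fibres, read 10.37, 11.96 and 10.24 in PBS gavage skin, 11.87, 6.92 and 11.47 in PBS pump skin, and 7.11, 11.99 and 6.42 in PBS ip skin. PBS pump replicate 1, with its high Acta1, was low in Myh4 and high in Myh2, and PBS ip replicate 1 was the reverse. Myh7, the chain of slow fibres, was 8.19 in PBS pump replicate 1, 6.66 in PBS ip replicate 2 and 5.59 to 5.80 in the other 7 arrays, so that it exceeded the table median of 6.72 in 1 array and was not tested.

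**Figure D4:**
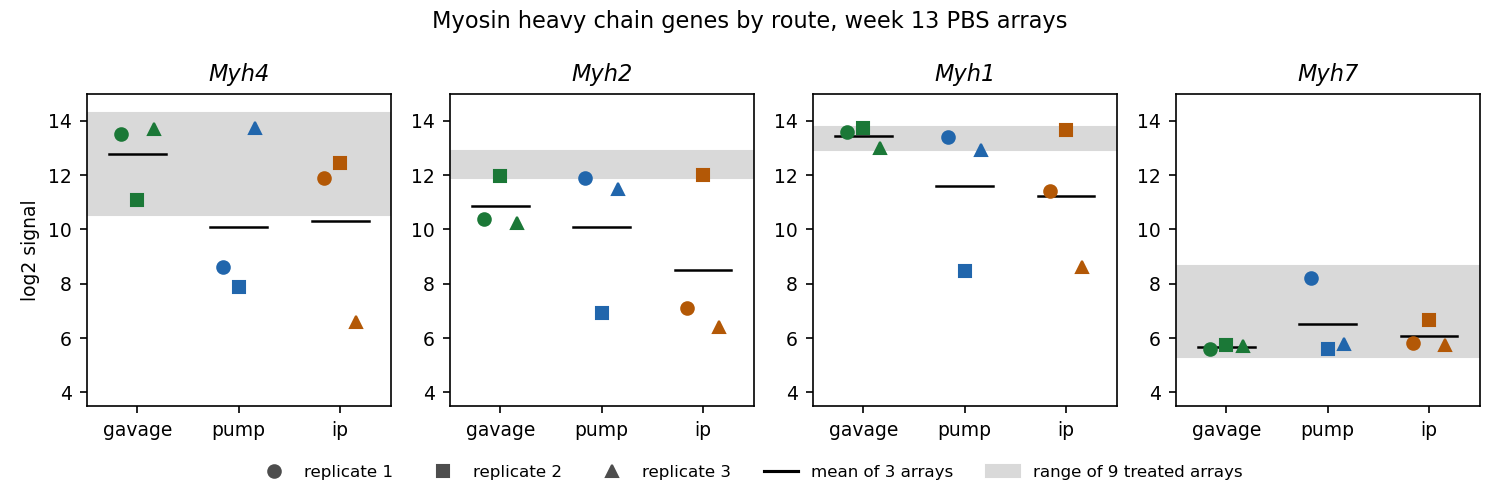
Log2 signal of the myosin heavy chain genes Myh4, Myh2, Myh1 and Myh7 (vertical axes, 1 common scale) in the 9 week 13 vehicle arrays by route (horizontal axes), with bars at the mean of 3 arrays and a grey band over the range of the 9 treated arrays. PBS pump replicate 1 has 8.62 for Myh4 beside 11.87 for Myh2 and 8.19 for Myh7, while PBS pump replicate 3 has 13.74 for Myh4.

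Fat and dermis varied less than muscle. The mean of 18 adipocyte genes was 10.23, 10.29 and 9.74 in PBS gavage skin, 9.77, 9.99 and 9.99 in PBS pump skin, and 9.34, 10.19 and 9.22 in PBS ip skin. PBS pump replicate 2, which was low in muscle, was not low in fat, whereas PBS ip replicates 1 and 3 were the lowest in fat. Adipoq, the fat cell hormone adiponectin, was 9.69 and 9.76 in these 2 arrays and 10.47 to 11.26 in the other 7. All 9 vehicle arrays had an adipocyte mean below the lowest treated array, at most 10.29 against 10.36 to 11.45 in treated skin. The 16 dermal matrix genes averaged 12.05, 12.08 and 11.41 in PBS gavage skin, 11.59, 11.43 and 11.11 in PBS pump skin, and 11.09, 12.05 and 11.07 in PBS ip skin. Col1a1, the main fibrillar collagen of dermis, read 11.84, 11.68 and 10.60 in PBS gavage skin, 10.62, 9.91 and 10.83 in PBS pump skin, and 9.77, 11.37 and 9.91 in PBS ip skin. PBS gavage minus PBS ip was 1.02 (SE 0.50, limma adjusted p = 0.801).

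A measure of RNA quality moved with the muscle level. Control probe sets at the 3′ and 5′ ends of Gapdh differed by 0.51, 0.68 and 0.71 in PBS pump replicate 2, PBS ip replicate 1 and PBS ip replicate 3, the 3 arrays lowest in muscle, and by 0.19 to 0.33 in the other 6. For the actin controls the difference was 1.02, 1.27 and 1.19 in these 3 arrays and 0.51 to 1.05 in the other 6. The part of RNA quality in the muscle and fat levels was not tested.

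Hair stage was read from shaft and sheath genes. The mean of 18 hair shaft genes was 9.74, 8.93 and 11.25 in PBS gavage skin, 10.13, 9.58 and 11.72 in PBS pump skin, and 10.91, 7.67 and 10.11 in PBS ip skin. Every route had both higher and lower arrays, and no member was free of overlap in any pair. The mean of 13 inner root sheath genes was 10.34, 10.52 and 11.33 in PBS gavage skin, 10.91, 9.94 and 11.81 in PBS pump skin, and 11.41, 8.14 and 10.86 in PBS ip skin. PBS pump replicate 3 was highest in both lists and PBS ip replicate 2 lowest. Krt33a, a hard keratin of the shaft, ranged 27.4-fold: 10.96, 10.14 and 12.61 in PBS gavage skin, 11.37, 10.63 and 13.08 in PBS pump skin, and 12.10, 8.30 and 11.62 in PBS ip skin. Its difference between PBS pump and PBS ip was 1.02 (SE 1.11, limma adjusted p = 0.999). Krt71, a keratin of the inner root sheath, read 11.68, 11.93 and 12.80 in PBS gavage skin, 12.40, 10.80 and 13.38 in PBS pump skin, and 12.80, 8.31 and 12.01 in PBS ip skin. The 9 vehicle arrays spanned 7.67 to 11.72 for the hair shaft list, overlapping the 5.82 to 11.07 of treated skin. The medians were 10.11 in vehicle skin and 6.77 in treated skin.

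Some other genes of the growing follicle followed the order of the shaft list, and some did not. The panel gene Hoxc13 was highest in PBS pump replicate 3 at 9.14 and lowest in PBS ip replicate 2 at 7.19, as the shaft list was. Lef1, also of the panel, was highest in PBS pump replicate 3 at 9.87 but lowest in PBS pump replicate 2 at 7.89. Shh, the ligand by which the growing bulb signals, read 7.43, 10.09 and 9.06 in PBS gavage skin, 8.93, 5.88 and 10.05 in PBS pump skin, and 8.91, 8.0 and 8.77 in PBS ip skin. PBS pump replicate 2 had the lowest Shh of the 9 arrays although its hair shaft level was above that of PBS ip replicate 2 and PBS gavage replicate 2. The mean of 7 melanocyte genes was 8.18, 9.64 and 8.76 in PBS gavage skin, 8.25, 7.16 and 10.07 in PBS pump skin, and 7.86, 7.93 and 7.19 in PBS ip skin. Tyr, tyrosinase, the rate-limiting enzyme of melanin synthesis, ranged 29.5-fold, with 5.89, 9.04 and 7.59 in PBS gavage skin, 6.56, 4.95 and 9.73 in PBS pump skin, and 5.64, 5.77 and 4.85 in PBS ip skin. PBS gavage replicate 2 and PBS pump replicate 3 were highest in both Tyr and Shh. Of the 7 melanocyte genes, 5 were higher in PBS gavage than in PBS ip without overlap, where 3.69% of all genes tested were, and none was called. PBS gavage minus PBS ip was 2.09 for Tyr (SE 1.19, limma adjusted p = 0.801). Mki67, a marker of dividing cells, ranged from 10.35 to 11.54 over the 9 arrays, and Lgr5, a stem cell gene of the resting follicle, from 9.11 to 10.10. Shh and Tyr were named after their values were seen.

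Because many muscle and hair genes varied widely within a route, start-site windows of 3 such genes are shown, with motif matches in capitals. The window of the muscle creatine kinase gene Ckm was searched too, held 0 matches of any motif and is not printed. The motifs searched were TATAAA, the core of the TATA box, the CArG box, which serum response factor binds, and CTTTGA, a core that TCF and LEF factors bind. The windows are from RefSeq, build GRCm38.p6, each 300 bases long and printed 5′ to 3′ along the gene, and motifs were searched on both strands, where no 2 matches overlap in these windows. Acta1 at chr8:123894726-123895025 (minus strand) holds 1 CArG box and 1 TATAAA, Krt31 at chr11:100050502-100050801 (minus strand) 1 CTTTGA and 1 TATAAA, and Krt71 at chr15:101743048-101743347 (minus strand) 1 TATAAA motif.
Acta1: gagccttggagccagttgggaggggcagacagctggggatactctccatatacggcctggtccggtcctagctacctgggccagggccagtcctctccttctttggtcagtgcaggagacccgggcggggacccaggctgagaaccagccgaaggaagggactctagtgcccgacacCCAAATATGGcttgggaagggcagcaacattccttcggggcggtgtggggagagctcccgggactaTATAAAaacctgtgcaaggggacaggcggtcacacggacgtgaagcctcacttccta
Krt31: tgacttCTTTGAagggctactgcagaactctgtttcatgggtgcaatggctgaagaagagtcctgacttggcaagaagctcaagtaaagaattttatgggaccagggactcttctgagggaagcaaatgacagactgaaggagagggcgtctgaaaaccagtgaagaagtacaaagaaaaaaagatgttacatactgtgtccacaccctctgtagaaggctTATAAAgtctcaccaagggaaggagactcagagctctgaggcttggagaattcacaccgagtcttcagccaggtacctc
Krt71: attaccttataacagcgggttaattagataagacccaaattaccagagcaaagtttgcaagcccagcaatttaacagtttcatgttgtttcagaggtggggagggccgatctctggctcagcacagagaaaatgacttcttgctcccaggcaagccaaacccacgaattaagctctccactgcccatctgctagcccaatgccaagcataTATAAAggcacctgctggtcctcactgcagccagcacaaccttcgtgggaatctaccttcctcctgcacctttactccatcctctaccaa
Among 32851 RefSeq windows of this length, 13.6% hold TATAAA, 1.63% hold a CArG box and 16% hold CTTTGA. A match is a description of these letters and not evidence of binding.

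T cell, cytotoxic, interferon gamma response and MHC class I genes were higher in all 9 vehicle arrays than in treated skin, as list means. Members were kept by their level in the 9 vehicle arrays only. Kept were 11 of 12 T cell, 12 of 16 cytotoxic, 18 of 18 interferon gamma response and 10 of 10 MHC class I genes on the array. Where members were left out, the filter can favour higher vehicle means, and its part was not tested. The mean of 11 T cell genes was 8.19, 8.38 and 8.33 in PBS gavage skin, 8.53, 8.64 and 8.11 in PBS pump skin, and 8.22, 8.20 and 8.64 in PBS ip skin. All 9 values lay above the 7.07 to 7.64 of the treated arrays, and the routes overlapped. Cd8a, the co-receptor of cytotoxic T cells, read 8.62, 9.13 and 9.24 in PBS gavage skin, 9.16, 9.27 and 8.89 in PBS pump skin, and 9.03, 8.56 and 9.60 in PBS ip skin, against 6.66 to 7.41 in treated skin. Its route differences were -0.11, -0.06 and 0.04 for PBS gavage minus PBS pump, PBS gavage minus PBS ip and PBS pump minus PBS ip (SE 0.27 each, limma adjusted p = 0.969, 0.975 and 0.999). The 12 cytotoxic lymphocyte genes averaged 8.60, 8.27 and 8.80 in PBS gavage skin, 9.17, 8.95 and 8.47 in PBS pump skin, and 8.79, 7.93 and 9.21 in PBS ip skin, above the 6.12 to 6.98 of treated skin. The lowest vehicle value, that of PBS ip replicate 2, was still above the highest treated one. Gzmb, the killer protease granzyme B, ranged 9.30-fold among vehicle arrays, from 8.07 in PBS ip replicate 2 to 11.29 in PBS ip replicate 3, so that a single route held both ends.

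The 18 interferon gamma response genes averaged 10.35, 10.09 and 10.80 in PBS gavage skin, 10.48, 10.42 and 10.82 in PBS pump skin, and 10.61, 9.45 and 10.30 in PBS ip skin, against 7.33 to 8.41 in treated skin. Cxcl9, a chemokine that draws T cells, read 12.62, 11.95 and 13.03 in PBS gavage skin, 12.91, 13.00 and 13.08 in PBS pump skin, and 13.00, 11.28 and 12.81 in PBS ip skin. Iigp1, an immunity-related GTPase, had 65.7% of its sum of squares between routes: 12.83, 13.04 and 13.16 in PBS gavage skin, 12.86, 12.80 and 13.25 in PBS pump skin, and 12.73, 12.21 and 12.41 in PBS ip skin. Both routes lay above PBS ip without overlap, by 0.56 for PBS gavage and 0.52 for PBS pump (SE 0.17 each), and neither passed the test (limma adjusted p = 0.801 and 0.999). The other probe set of Iigp1 overlapped PBS ip in both pairs. Its differences were 0.27 and 0.58, the second with PBS pump replicate 3 at 12.71. Of the 18 genes, 3 were higher without overlap in PBS gavage than in PBS ip and 4 in PBS pump than in PBS ip, where 3.69% and 2.64% of all genes tested were. The 10 MHC class I genes, which present peptides to CD8 T cells, averaged between 11.55 and 11.99 over the 9 vehicle arrays, against 10.26 to 10.99 in treated skin. Not every immune list stood above treated skin: the 16 type I interferon response genes averaged 8.68 to 9.95 in vehicle skin against 7.08 to 9.12 in treated skin, and the 8 MHC class II genes 9.90 to 10.35 against 9.40 to 10.05. The 7 mast cell genes averaged 7.45 to 8.83 in vehicle skin against 8.09 to 8.88 in treated skin.

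**Figure D5:**
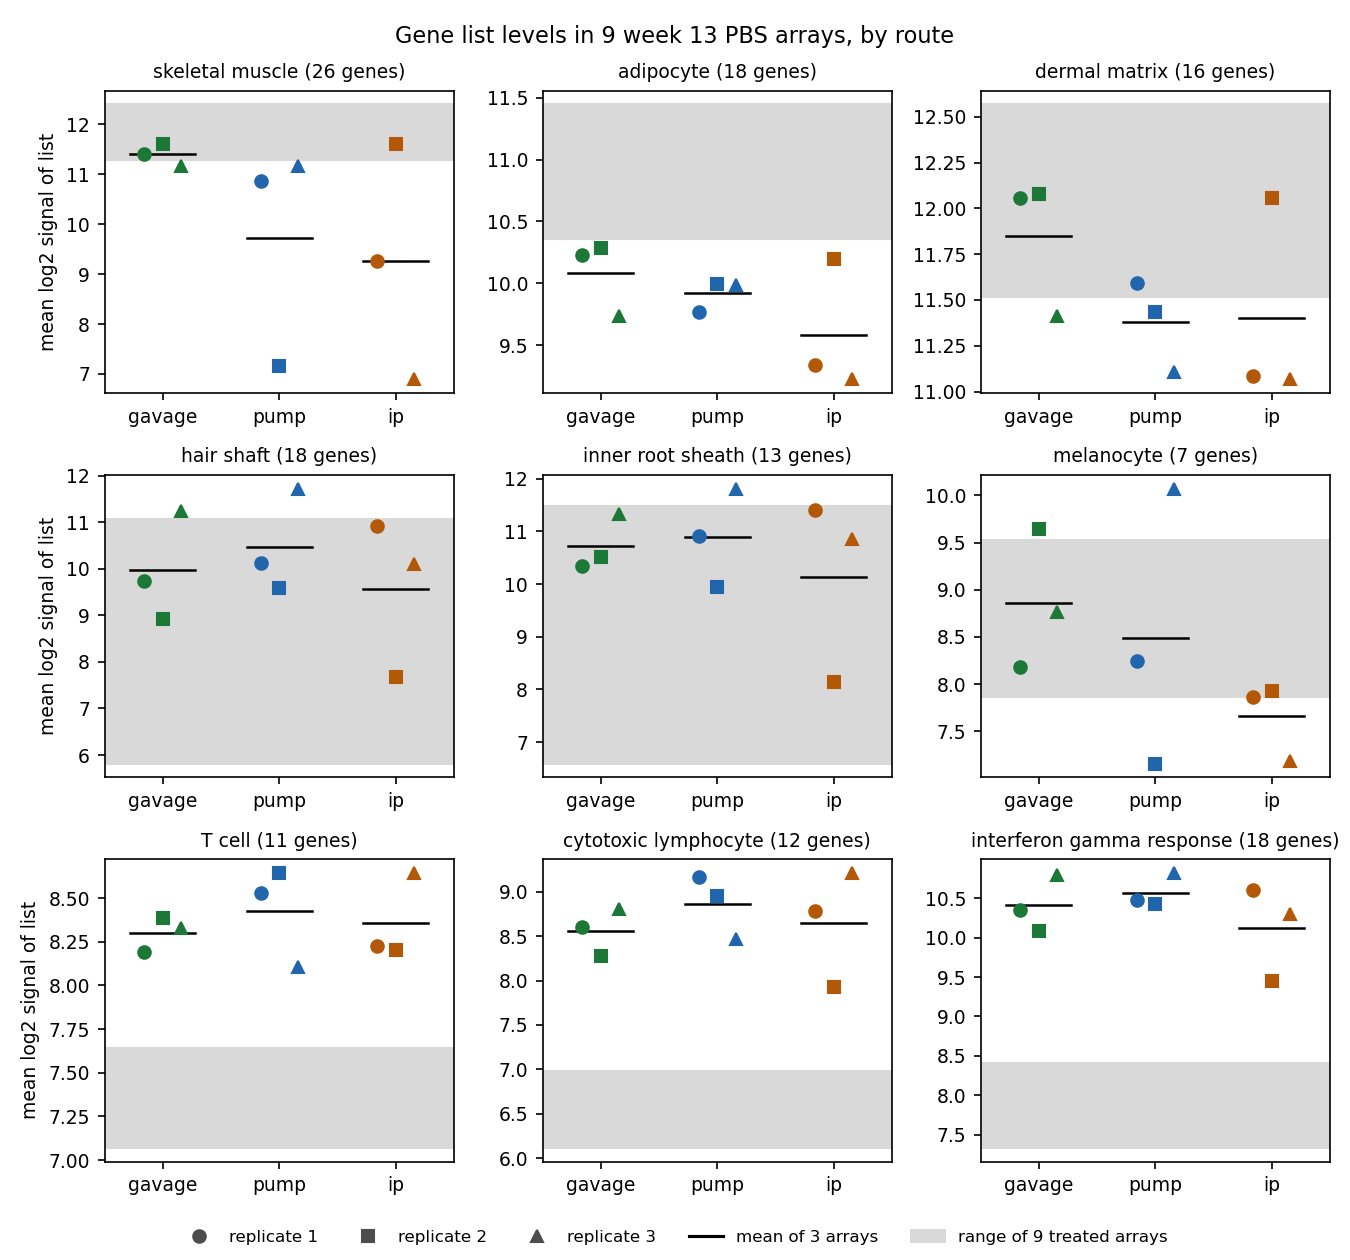
Mean log2 signal of the tested members of 9 gene lists (vertical axes, scales differ between panels) in each week 13 vehicle array by route (horizontal axes), with bars at the mean of 3 arrays and a grey band over the range of the 9 treated arrays. T cell, cytotoxic and interferon gamma response genes lie above the band in all 9 vehicle arrays, whereas skeletal muscle falls to 7.15 in PBS pump replicate 2 and 6.90 in PBS ip replicate 3.

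Genes of other skin cells also varied within routes. Jchain, the joining chain of secreted antibodies and a plasma cell gene, read 10.37, 11.40 and 10.50 in PBS gavage skin, 10.55, 9.95 and 7.22 in PBS pump skin, and 10.82, 11.51 and 7.35 in PBS ip skin, a 19.5-fold range. It was lowest in PBS pump replicate 3 and PBS ip replicate 3. The mast cell protease gene Cpa3 read 10.94, 10.59 and 9.72 in PBS gavage skin, 9.88, 9.90 and 8.98 in PBS pump skin, and 10.33, 10.76 and 9.40 in PBS ip skin, with replicate 3 lowest in each route, although replicate numbers carry no known pairing. The share of the sum of squares between routes was 17.2% for Jchain, 32.0% for Cpa3 and 41.2% for Ighm, another B and plasma cell gene. For the median gene it was 22.5%. Jchain, Cpa3 and Ighm were named after their values were seen, and none was called. The 16 macrophage genes averaged 10.18, 9.78 and 10.16 in PBS gavage skin, 10.38, 9.68 and 9.31 in PBS pump skin, and 9.75, 9.86 and 9.76 in PBS ip skin, and these ranges overlapped those of treated skin, 9.08 to 10.18.

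Epidermal genes varied less than muscle and hair genes but more than most. The median range of a member over the 9 arrays was 1.03 for the epidermal differentiation list and 1.93 for the list of injury keratins and alarm proteins, against 0.52 for all genes tested. Krt10, a keratin of the upper epidermis, lay between 14.06 and 14.36 in all 9 arrays, a 1.23-fold range, with route differences of -0.03, 0.05 and 0.07. Krt16, a keratin induced by wounding and inflammation, read 11.82, 11.29 and 12.22 in PBS gavage skin, 11.70, 11.60 and 11.63 in PBS pump skin, and 12.01, 11.08 and 11.99 in PBS ip skin, against 7.37 to 10.30 in treated skin. The late cornified envelope genes were an exception within PBS ip. Lce1c read 12.62, 12.85 and 12.95 in PBS gavage skin, 12.83, 13.10 and 12.87 in PBS pump skin, and 11.31, 13.32 and 11.42 in PBS ip skin. Without PBS ip replicate 2, PBS gavage against PBS ip called 12 genes and PBS pump against PBS ip called 5. Lce1a1, Lce1a2 and Lce1c were among both, Lce1b among the first only, with PBS gavage higher by 1.16 for Lce1a1, 1.36 for Lce1a2, 1.40 for Lce1b and 1.45 for Lce1c (limma adjusted p = 0.0485, 0.0485, 0.0485 and 0.0361). Abcd2, a peroxisomal fatty acid transporter, was called in both as well, at 7.80, 8.10 and 7.92 in PBS gavage skin, 7.65, 7.65 and 7.77 in PBS pump skin, and 6.30 and 6.24 in the 2 PBS ip arrays kept. These genes were named after their values were seen, and with all 9 arrays none of them was called. The 2 PBS ip arrays kept were also the 2 lowest in fat and the 2 of largest Gapdh and actin differences between 3′ and 5′ ends, as given above, and the part of these in the calls was not tested.

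Genes that could follow the handling of the mice were not called in any pair. Dbp, an output gene of the circadian clock, read 9.75, 10.20 and 11.09 in PBS gavage skin, 9.36, 8.82 and 10.74 in PBS pump skin, and 8.97, 11.90 and 8.63 in PBS ip skin, and each route held a high array. Fos, an immediate early gene, read 13.14, 12.22 and 10.80 in PBS gavage skin, 13.15, 12.36 and 10.33 in PBS pump skin, and 13.50, 9.51 and 12.71 in PBS ip skin. In each route the array highest in Dbp was the lowest in Fos. Fos was named after their values were seen. Fkbp5, induced by glucocorticoids, was 10.94 in PBS gavage replicate 1 and 9.20 to 9.62 in the other 8. Of 21 genes of the foreign body and wound response, which could follow a pump, none was called in any pair. A pair called at most 0.00812% of all genes tested, so this count carries little information. In PBS pump against PBS ip, 2 of the 21 were higher without overlap, where 2.64% of all genes tested were, and 0 were lower. Between PBS gavage and PBS pump, 0 of the 21 were free of overlap, where 13% of all genes tested were. The list mean was 10.26, 9.95 and 10.39 in PBS gavage skin, 10.33, 9.85 and 10.07 in PBS pump skin, and 10.17, 9.78 and 10.19 in PBS ip skin. Arg1, an arginase of wound macrophages and epidermis, read 9.82, 9.42 and 11.17 in PBS gavage skin, 11.52, 10.54 and 10.72 in PBS pump skin, and 10.52, 9.54 and 10.33 in PBS ip skin. PBS gavage minus PBS pump was -0.79 (SE 0.48, limma adjusted p = 0.895). PBS pump minus PBS ip was 0.80 (SE 0.48, limma adjusted p = 0.999), without overlap. Over all 37 lists, none had a member called in any week 13 test, each of which called at most 1 of 12315 genes (0.00812%).

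Far more genes were called between the same 2 routes at week 6, with 5 PBS gavage and 3 PBS pump arrays. PBS gavage against PBS pump called 3976 of 12485 genes (31.8%), 2982 higher (23.9%) and 994 lower (7.96%) in PBS gavage. Krt6a, a keratin of the companion layer and of wounded epidermis, read 11.10, 11.19, 10.97, 10.89 and 11.22 in PBS gavage skin against 10.43, 9.56 and 9.32 in PBS pump skin, a rise of 1.30 (SE 0.22, limma adjusted p = 0.00568). Lep, the fat hormone leptin, rose by 1.32 (SE 0.33, limma adjusted p = 0.0187), and Col1a1 fell by 0.50 (SE 0.13, limma adjusted p = 0.0216). At week 13 the same differences were -0.41 for Krt6a (SE 0.44), -0.46 for Lep (SE 0.45) and 0.92 for Col1a1 (SE 0.50), none called. These SEs were larger than at week 6, and so was the size of the Col1a1 difference. The counts of called genes therefore do not measure how large the differences were at each week. The weeks also differed in array signal: the spiked control BioB read 6.72 to 6.95 at week 6 and 9.57 to 10.15 at week 13. The part of this in comparisons between weeks was not tested. Dnajc17 was lower in PBS gavage at both weeks, by -0.43 at week 13 (limma adjusted p = 0.895) and by -0.55 at week 6 (limma adjusted p = 0.00363). None of the 26 skeletal muscle genes was called at week 6, when their median difference was -1.40. Their list mean was 7.19 in PBS gavage replicate 5 and 11.23 to 12.26 in replicates 1 to 4. In PBS pump it was 12.37 to 12.49. Called lower in PBS gavage were 6 of 9 endothelial genes, 6 of 16 dermal matrix genes, 5 of 16 macrophage genes and 5 of 6 mast cell genes. Higher in PBS gavage were 6 of 15 circadian clock genes, 5 of 12 resting follicle and bulge genes and 5 of 10 heat shock genes.

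RNA quality measures differed between the week 6 routes. The Gapdh difference between 3′ and 5′ ends was 0.15 to 0.58 in PBS gavage arrays and 0.03 to 0.06 in PBS pump arrays, and the actin difference 0.93 to 1.60 against 0.67 to 0.71, both without overlap. The 75th percentile of all probe sets was also higher, 8.29 to 8.35 in PBS gavage against 8.17 to 8.24 in PBS pump. The 25th percentile was lower in PBS gavage, 5.46 to 5.48 against 5.54 to 5.59. So was the median, 6.69 to 6.71 against 6.74 to 6.77. Their part in the week 6 differences was not tested. The share of called genes that were higher was 75% as deposited, 59.6% after quantile normalization, 82.4% after subtracting array medians and 62.9% without a filter on low values. Without PBS pump replicate 2 the count was 1982, and without PBS pump replicate 3 it was 1491.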

How the data were processed

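Log2 signals of 45101 probe sets on 48 Affymetrix arrays of skin RNA were used as the authors deposited them. RMA is the tool that the submitters' processing notes name, without a version. Labelling used a 3′ kit, per the labels. No read depth exists for arrays, and the number of arrays limits the precision.

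Groups came from titles and treatment labels. Probe sets naming 1 gene symbol numbered 34958, 932 named several and 9211 none. For a gene with several probe sets, the one with the highest mean signal was kept. Genes above the table's median (6.72) in at least 3 of the 9 arrays were tested. Using limma 3.58.1 (R 4.3.3), a mean for each route was fitted with empirical Bayes moderation, giving a moderated F test over the 3 routes and the 3 pairs, with p-values adjusted by Benjamini-Hochberg within each test at 0.05. Week 6 was fitted separately, and the difference between weeks in 1 fit. The procedure was tested on simulated data with independent noise for each gene. Many muscle and hair genes moved together in the real arrays, which the simulation did not include. Gene lists were written by hand and are described by counts and means, without tests. Members of lists that were unmatched to the table (40) were not analysed here.

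Genes named are the 10 of smallest p in each pair and in the F test, as fewer than 5 were called, the 10 of largest SD within a route, and a panel of 38 genes, of which Plin1 and Spp1 were not analysed here and Fgf5 was below the filter. Others are said to be named after their values were seen. The comparison, the lists and the rule were chosen with earlier results of these data known. The series calls the arrays biological replicates, and p-values measure the spread between them.

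Same-numbered arrays of different routes had deviations from their group means that correlated at -0.232 to 0.435 in week 13, and at -0.240 to -0.004 in week 6, so numbers were not taken as pairs. Alternatives were other normalizations, filters, probe sets, fits, covariates, a replicate block and leaving out each array.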

Additional observations from a re-analysis of the deposited data

Results flagged for a closer look

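In the 5 PBS gavage arrays of week 6, 6 of 47 list and gene levels examined had 1 array far from the other 4 (a gap above 0.71 of the range, which chance gives in about 1 of 20 such groups). PBS gavage replicate 5 was lowest in the skeletal muscle list at 7.19 and stood apart in the hair shaft list at 7.40, the inner root sheath list at 8.88 and the list of injury keratins and alarm proteins at 9.41. PBS gavage replicate 3 stood apart in the adipocyte list at 10.6 and the melanocyte list at 7.46.

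For 9 of 11 genes examined, the difference PBS gavage minus PBS pump at week 13 less that at week 6 passed an interaction test in limma, as did 15.8% of the 11701 genes tested. Apart from Card6, their differences were below 0 at week 13, where none was called, and above 0 at week 6. The values were -2.07 for Slc6a14 (limma adjusted p = 0.00426), -0.96 for Rad21, -0.78 for Acbd5, -0.60 for Grsf1, -0.94 for Ppp1cb, -1.16 for Zfp266, -1.01 for Mospd2, -0.97 for Bpnt2 and 0.80 for Card6. The first 10 of the 11 genes were chosen by their week 13 p, so 1 side of each interaction was selected for its size. The weeks also differed in the BioB control, as given above.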

How the results depend on the processing

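The F test called 0 genes after subtracting array medians, without a filter, with all probe sets, with an intensity trend, with a replicate block, with the hair shaft, skeletal muscle or adipocyte list as a covariate, with hair shaft and muscle together (added after seeing the data) and without both arrays lowest in muscle, and 20 with all 47 arrays in the fit. PBS gavage against PBS pump called 9 genes with all 47 arrays. PBS pump against PBS ip called 4 genes with all probe sets, 6 with all 47 arrays, and 0 with the replicate block, each covariate and without the 2 arrays. The week 6 count was 0 with the replicate block, against 3976 without it. Leaving out 1 array gave 0 to 1 gene for the F test, 0 to 0 for PBS gavage against PBS pump, 0 to 12 for PBS gavage against PBS ip, 0 to 5 for PBS pump against PBS ip, 1491 to 4000 at week 6, and a median share between routes of 21.5% to 34.3%. With all probe sets, Hdlbp and Ctr9 were called higher in PBS pump than in PBS ip, where the probe sets tested otherwise were lower (-0.21 and -0.14). The cause of these changes was not tested. The spread within routes limits what could be seen in muscle and hair genes: the SE of a route difference was 1.61 on the log2 scale for Acta1.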
